A study of Mus musculus with 36 samples.

Results

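The heat shock and DnaJ chaperones are described here in mouse heart. All rows of the deposited expression table were taken whose gene name begins with Hspa, Hspb, Hspd, Hspe, Hsph, Hsp90, Dnaja, Dnajb or Dnajc, which gave 79 rows. Leaving out pseudogene names left 74 rows under 73 symbols, of 32750 symbols in all, and each symbol was represented by its row with the highest mean. The 65 genes with an FPKM (fragments per kilobase of transcript, scaled to the mapped fragments of the library) of at least 1 in at least 2 libraries are described. The other 8 were Dnajb13, Dnajb7, Dnajb8, Dnajc22, Dnajc5b, Dnajc5g, Hspb9 and Dnajc6. Just outside the limit stood Dnajc6, which reached 1.03 FPKM in 1 library, and just inside it stood Hspbap1, with 5 libraries at or above 1 FPKM and a highest value of 1.51. Hspb11, Hspbp1 and Hspbap1 carry the name of the small heat shock proteins but are not members of that family. Hspb6 was not analysed here.

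Heat shock proteins are chaperones that hold, fold and refold other proteins. HSP70 proteins bind short unfolded stretches and are recruited and switched by DnaJ (HSP40) proteins, while HSP110 proteins exchange their nucleotide; HSP90 proteins act later, on near-folded clients, and HSP60 with HSP10 forms a folding chamber in mitochondria. Small heat shock proteins hold unfolded proteins without using ATP and are abundant in heart muscle, where several of them associate with the contractile apparatus. Some members are made at all times and others mainly under protein damage, through heat shock factors in the cytosol and the unfolded protein response in the endoplasmic reticulum (ER).

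RNA was sequenced in 36 libraries of CD-1 background mice in 16 groups. Cells separated on Miltenyi columns, called isolated cardiomyocytes, came from postnatal day (P) 4, from P0, and from hearts 7 days after resection or 7 days after a sham operation, with n = 3 each. Dissociated adult cardiomyocytes in culture (explants) were taken at 0, 24, 48 and 72 h, with n = 2 each. Whole ventricle came from adults and from P7, P4 and P0 mice, and from operated hearts, resected or sham, on day 1 or day 7 after surgery (n = 2 each); the labels give the day after surgery and not the age at surgery. No group carries a transgene or drug treatment in the labels. The labels do not say that replicates came from separate animals, so p-values measure the spread between these samples only.

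All 36 libraries carry cardiomyocytes as their cell type, ventricle included. Summed cardiomyocyte markers (5 genes) came to 2180 to 16000 FPKM over all libraries. Summed endothelial markers (6 genes) ran from 12.9 to 429 FPKM in isolated libraries and from 128 to 283 FPKM in ventricle, and summed macrophage and leukocyte markers (7 genes) from 28.4 to 188 FPKM in ventricle, so ventricle holds markers of other cells and the isolated libraries differ in them. Lung epithelial markers (5 genes) summed to 178 to 1160 FPKM in the isolated libraries after resection and to at most 215 FPKM in operated ventricle. In such bulk RNA, fewer cells of a type and less RNA per cell cannot be told apart. Depth per library is unknown. Between 10454 and 13134 gene models per library reached 1 FPKM.

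The 65 chaperone genes summed to 1302 FPKM in the lowest library, an isolated one 7 days after sham, and to 5599 FPKM in the highest, an explant at 72 h. Ranked by the median FPKM over all libraries, the order was Hsp90ab1 (389 FPKM), the cytosolic HSP90 made at all times, then Hspb7 (341), a small heat shock protein of heart and skeletal muscle, Hspa9 (185), the mitochondrial HSP70 mortalin, and Hspa5 (181), the ER HSP70 BiP. The ranges of neighbours in that order overlapped, with 170 to 1194 FPKM for Hsp90ab1 and 160 to 728 FPKM for Hspb7. Hspb7 or Hsp90ab1 was the highest chaperone in every library, at up to 32.1% of the chaperone sum. The heat map of group means gives every member over the 16 groups.

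**Figure D1:**
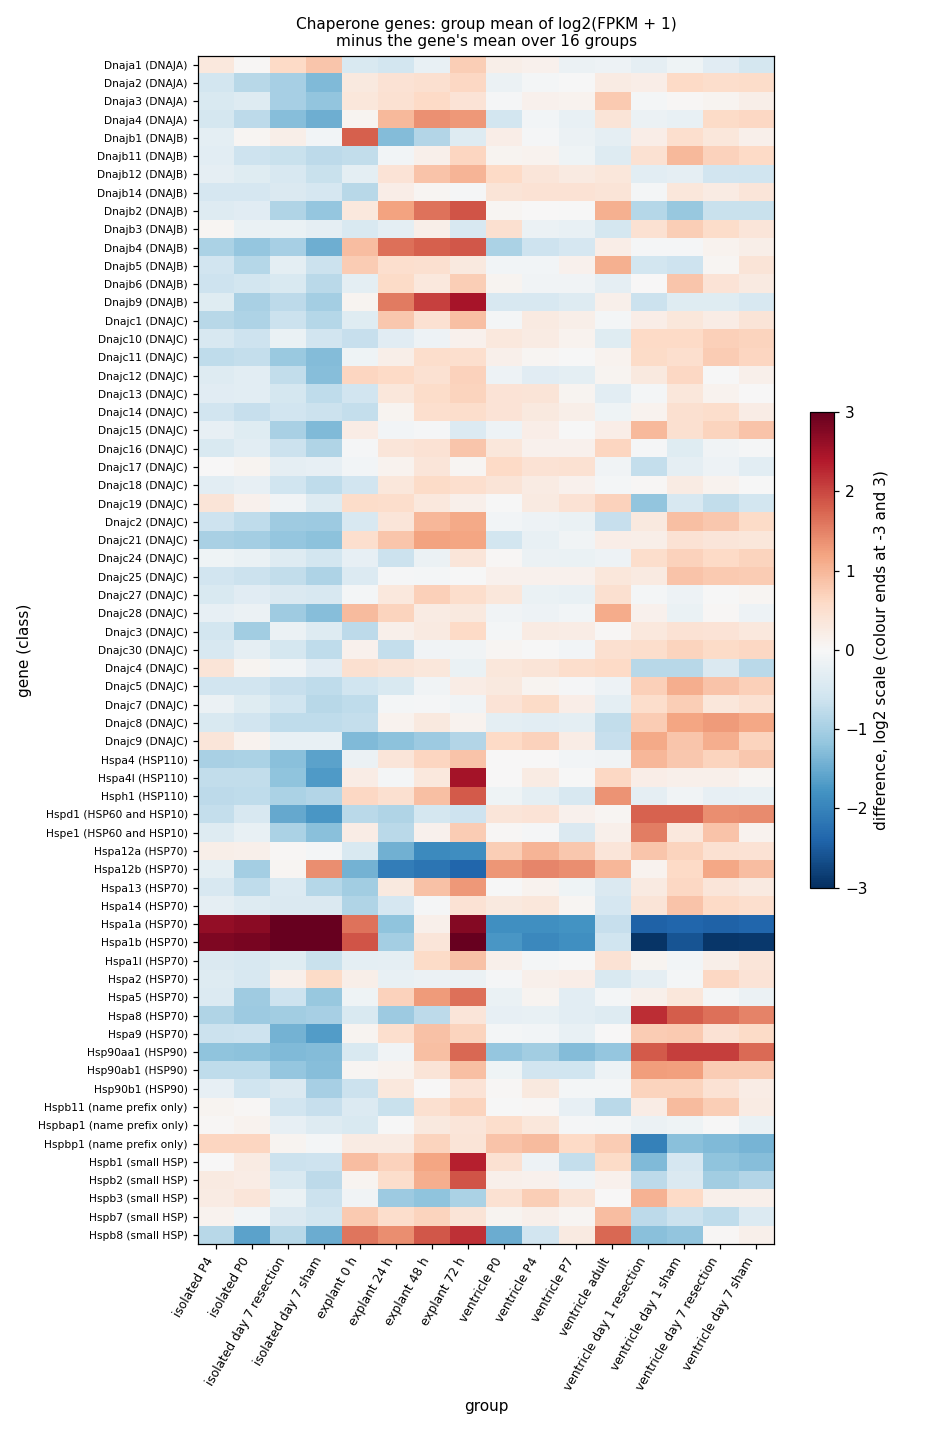
Heat map of the 65 chaperone genes (rows, with their class) over the 16 groups (columns). Colour is the group mean of log2(FPKM + 1) minus the mean of that gene over the groups; red is higher. Hspa1a and Hspa1b stand out as high in the isolated groups and low in ventricle, and Hspa8 and Hsp90aa1 as high in operated ventricle.

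Differences below are of log2(FPKM + 1), which understates the change of low genes, and a gene was called at a limma adjusted p (Benjamini-Hochberg, over all genes tested) under 0.05, two-sided. The plot of changes by comparison gives the member changes against the median of all genes. The libraries differ in how their values are spread, and the median gene itself moved in several comparisons. Where members were called, most counts therefore stand beside that median. Most also stand beside the count after scaling each library to the same median ratio (median-of-ratios) and after quantile normalization. Counts of the pathway lists and of genes without overlap between groups are given on the deposited scale only.

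**Figure D2:**
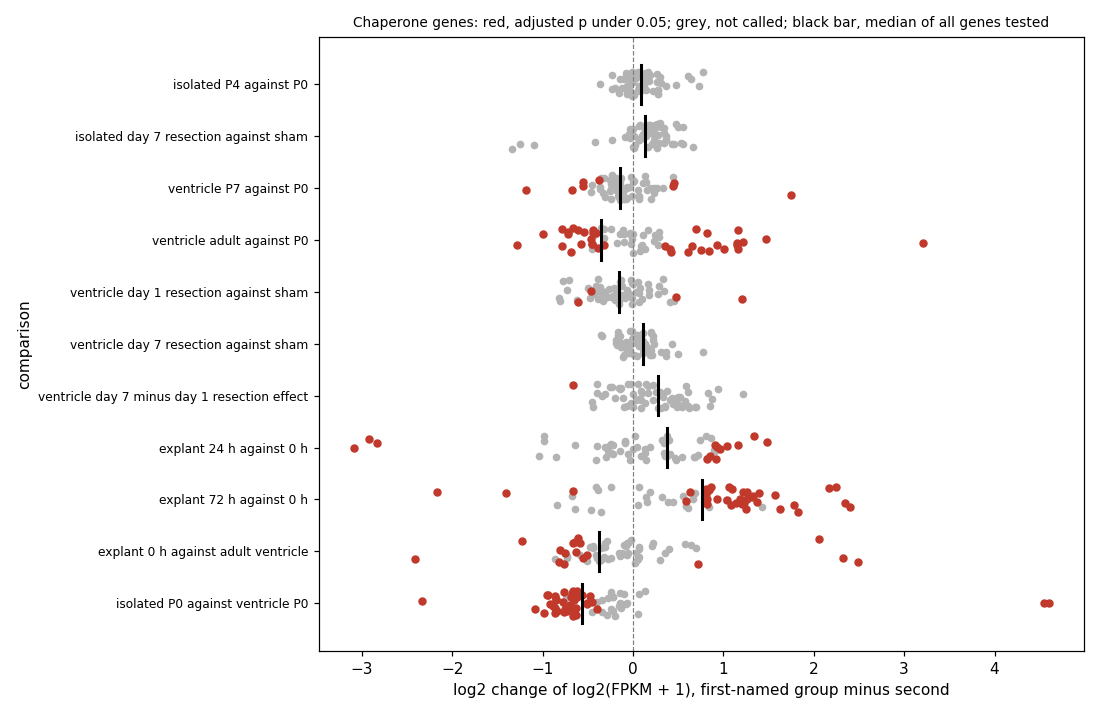
Change of each tested chaperone gene (points) in 11 comparisons, as the difference of log2(FPKM + 1), first-named group minus second. Red points have a limma adjusted p under 0.05, grey points do not, and the black bar is the median of all genes tested; the members scatter around that bar in most comparisons, and Hspa1a and Hspa1b lie far to the right for isolated cells against ventricle at P0.

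Hspa1a (ENSMUSG00000091971, mm9 chr17:35106143-35109069) and Hspa1b (ENSMUSG00000090877, mm9 chr17:35093942-35096181) encode the stress-inducible HSP70. The reference coding sequences are 1926 and 1929 bases long and 98.1% identical over the shared length, and 86.4% of 36-base windows are shared, so how reads were split between the pair is uncertain and the sum is better defined than either value. Their promoters are shown because the pair differed more than any other member between isolated cells and ventricle at P0. They are the 250 bases before the annotated start (RefSeq, GRCm38.p6, minus strand), at chr17:34972157-34972406 for Hspa1a and chr17:34959239-34959488 for Hspa1b, and they differ at 3 of 250 bases. Capitals mark the heat shock element core GAANNTTC, a palindrome searched on both strands.
Hspa1a: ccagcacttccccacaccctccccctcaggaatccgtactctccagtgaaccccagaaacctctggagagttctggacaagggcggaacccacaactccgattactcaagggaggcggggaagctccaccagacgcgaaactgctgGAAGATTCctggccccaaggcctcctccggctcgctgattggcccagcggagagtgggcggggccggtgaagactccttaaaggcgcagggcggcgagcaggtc
Hspa1b: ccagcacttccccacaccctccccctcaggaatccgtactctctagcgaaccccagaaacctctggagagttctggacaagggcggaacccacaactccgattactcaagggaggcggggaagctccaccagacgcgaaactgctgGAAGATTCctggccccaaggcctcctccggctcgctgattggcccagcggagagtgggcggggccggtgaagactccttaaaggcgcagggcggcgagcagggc
The core lies 104 to 97 bases before the start in both. RefSeq promoters of 300 bases (250 before and 50 after the start) were matched for 53 of the 65 members, with 68 promoters among them. GAANNTTC was present in 20.6% of these 68 promoters (12 members) and in 7.86% of all promoters. The form TTCNNGAA was present in 11.8% of them (6 members) and in 8.52% of all. The run of 3 alternating GAA and TTC units with 2 bases between them, which contains both short forms, was present on either strand for Dnajb6, Hspd1, Hspe1 and Hsph1, in 8.82% of the member promoters and 0.603% of all promoters. The 6 member promoters behind that share are not all separate sites. Both Hsph1 entries hold the same site, and the models of Hspd1 and Hspe1 overlap by 113 bases, so their matches may be 1 site. A match is a description of these letters, not a bound site. Dnajc11, Dnajc12, Dnajc18, Dnajc2, Dnajc30, Dnajc5, Hsp90aa1, Hsp90ab1, Hspa13, Hspa8, Hspa9 and Hspb2 had no entry.

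In isolated cardiomyocytes the inducible pair was high in every library. Hspa1a had 45.9, 16.2 and 98.7 FPKM at P4 and 34.3, 30.9 and 83.2 FPKM at P0, and it had 40.0, 128 and 32.6 FPKM after resection and 129, 110 and 121 FPKM after sham. Hspa1b had 63.1, 21.5 and 124 FPKM at P4 and 46.5, 40.6 and 99.0 FPKM at P0, and it had 54.2, 170 and 35.4 FPKM after resection and 174, 155 and 169 FPKM after sham. The resected libraries overlapped every other group, and all sham libraries stood above all P4 and P0 libraries. Ventricle was far lower. Over its 16 libraries the lowest, median and highest values were 0.208, 0.532 and 4.70 FPKM for Hspa1a and 0.00332, 0.766 and 6.54 FPKM for Hspa1b. Every one of the 12 isolated libraries lay above every one of the 16 ventricle libraries for both genes, and for no other member; 0.182% of all genes tested did so.

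At P0 the difference of isolated cells from ventricle was 4.55 for Hspa1a (SE 0.53, limma adjusted p = 2.07e-06), with 49.4 ± 29.3 FPKM in isolated cells (SD, n = 3) and 0.958 ± 0.338 FPKM in ventricle (SD, n = 2). For Hspa1b it was 4.60 (SE 0.53, limma adjusted p = 1.96e-06). These were among 39 of 65 members called in this comparison, where 54.7% of all genes were called (0.708% higher and 54.0% lower). The other 37 were lower in isolated cells, with a member median of -0.60 against -0.57 for all genes. After median-of-ratios scaling or quantile normalization 3 members were higher and none lower, so no member was called lower once the median gene was set level. Hspa12b, Dnajc14, Dnajc3 and Hspa4 had the largest decreases, at -2.34, -1.09, -0.99 and -0.95. Dnajc14 had 6.26, 6.09 and 7.90 FPKM in isolated cells against 16.4 and 14.6 FPKM in ventricle, and Hspa4, an HSP110 relative, had 30.4, 30.7 and 38.7 FPKM in isolated cells against 65.9 and 63.9 FPKM in ventricle, without overlap. Leaving out a P0 ventricle library (replicate 1 or 2) or replicate 2 of isolated P0 gave 20, 25 and 25 calls.

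Other genes also differed between isolated libraries and ventricle, and among the isolated libraries. Summed immediate early genes of tissue handling (10 genes, such as Fos) came to 319 to 1430 FPKM in isolated libraries and to 87.3 to 212 FPKM in ventricle. Among isolated libraries the pair was lowest in P4 replicate 2, and next in P0 replicates 1 and 2 and resection replicate 3. Immediate early sums were 353 FPKM in that P4 library, 351 and 319 FPKM in those P0 libraries and 885 FPKM in that resected one. They were 759, 698 and 1110 FPKM in the sham libraries, where the pair was high. Summed endothelial markers were 20.2 FPKM in that P4 library, 18.1 and 12.9 FPKM in those P0 libraries and 18.3 FPKM in that resected one. In the sham libraries they were 396 to 429 FPKM. Hspa12b, an HSP70 relative known from endothelial cells, was low in the same 4 libraries, with 1.35, 1.53, 1.11 and 1.17 FPKM, and had 13.5, 15.4 and 15.98 FPKM after sham. Ventricle, with endothelial sums of 128 to 283 FPKM, had the pair at 6.54 FPKM or less. Erythroid markers also differed among isolated libraries, with 221, 637 and 976 FPKM at P4 and 12500, 12100 and 567 FPKM at P0. The part of cell composition and of tissue handling in the values of the pair was not tested.

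**Figure D3:**
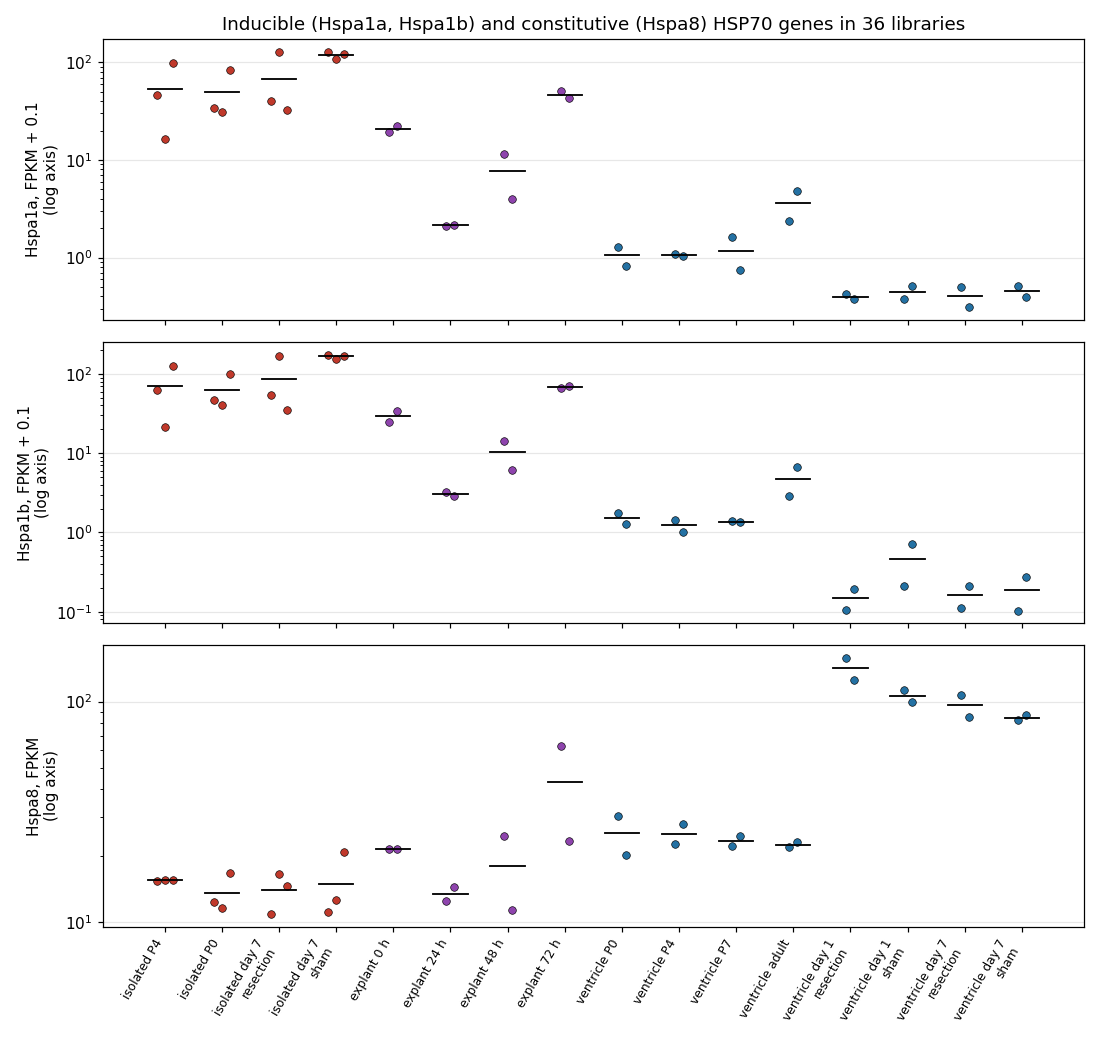
Hspa1a, Hspa1b and Hspa8 in each of the 36 libraries (points) by group, with the group mean (bar), on log axes of FPKM; 0.1 is added for Hspa1a and Hspa1b so that values near 0 can be drawn. Hspa1a and Hspa1b are high in isolated cells and in explants at 0 and 72 h and lowest in operated ventricle, while Hspa8 is highest in operated ventricle.

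Dnajb1 (ENSMUSG00000005483, mm9 chr8:86132073-86135801), the DnaJ partner that is induced with HSP70 in the heat shock response, did not share the isolated pattern. It ran from 6.69 to 17.1 FPKM in isolated cells and from 7.92 to 15.4 FPKM in ventricle, and these ranges overlap. It was high in fresh adult explants, with 42.7 and 34.1 FPKM at 0 h against 7.92 and 8.94 FPKM in adult ventricle, a difference of 2.06 (SE 0.30, limma adjusted p = 2.06e-05). Hspa1a had 19.2 and 22.2 FPKM in explants at 0 h against 2.29 and 4.70 FPKM in adult ventricle, a difference of 2.32 (SE 0.58, limma adjusted p = 0.00373). Hspa1b had 24.8 and 34.0 FPKM in explants at 0 h against 2.81 and 6.54 FPKM in adult ventricle, a difference of 2.49 (SE 0.58, limma adjusted p = 0.00222). Without adult replicate 1 the adjusted p of Hspa1a was 0.0575. Immediate early genes summed to 933 and 955 FPKM in these explants and to 105 and 113 FPKM in adult ventricle; the part of dissociation in the difference was not tested.

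Fresh explants differed from adult ventricle in 17 of 65 members, or 26.2%, where 33.8% of all genes were called (1.81% higher and 32.0% lower). The 4 higher members were the 3 above and Dnajb4, a muscle DnaJ protein, which had 99.8 and 122 FPKM in explants at 0 h and 68.5 and 65.2 FPKM in adult ventricle (difference 0.72, limma adjusted p = 0.0233). Among the 13 lower members were Hspa12b, with 0.483 and 2.53 FPKM in explants at 0 h and 11.5 and 10.8 FPKM in adult ventricle (difference -2.41, limma adjusted p = 0.0027), and Dnajb14, an ER-membrane DnaJ protein, with 1.89 and 1.41 FPKM in explants at 0 h and 5.52 and 4.90 FPKM in adult ventricle (difference -1.23, limma adjusted p = 2.06e-05). Dnajc3, of the ER lumen, had 7.50 and 5.56 FPKM in explants at 0 h and 11.98 and 12.5 FPKM in adult ventricle (difference -0.82), and Hspa12a, another HSP70 relative, had 3.32 and 1.75 FPKM in explants at 0 h and 5.47 and 4.64 FPKM in adult ventricle (difference -0.81). In none of the 4 did the groups overlap, which adds no support, since they were named for being called. Summed endothelial markers were 23.1 and 46.7 FPKM in these explants and 161 and 182 FPKM in adult ventricle, and their part in the fall of Hspa12b was not tested. The split depended on scaling. Median-of-ratios gave 15 higher and 2 lower, and quantile normalization 9 higher and 2 lower; the median of all genes was -0.38 as deposited and 0.01 and 0.04 after these. Leaving out explant 0 h replicate 2, adult replicate 1 or adult replicate 2 gave 8, 8 and 9 calls.

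The set sorted as cytosolic holds no gene of the DNAJC class. Of its 23 tested members, Dnajb1, Hspa1a and Hspa1b were called lower in explants at 24 h of culture and none was called higher. Of the DNAJC genes outside the ER and mitochondrial sets, Dnajc2, Dnajc8, Dnajc13 and Dnajc18 were called higher and none lower, with Dnajc2 at 0.85 (limma adjusted p = 0.034). Of all genes 2.6% were called lower and 15.5% higher. Dnajb1 had 42.7 and 34.1 FPKM at 0 h, 4.73 and 2.69 at 24 h, 7.43 and 3.52 at 48 h and 8.87 and 6.68 at 72 h. Hspa1a had 19.2 and 22.2 FPKM at 0 h, 2.02 and 2.07 at 24 h, 11.5 and 3.92 at 48 h and 50.6 and 42.7 at 72 h. Hspa1b had 24.8 and 34.0 FPKM at 0 h, 3.18 and 2.78 at 24 h, 14.3 and 5.95 at 48 h and 66.1 and 69.6 at 72 h. All 3 were lower at 24 h with no overlap, and at 72 h the HSP70 pair stood above its starting level while Dnajb1 stayed below. At 24 h against 0 h the differences were -3.09 for Dnajb1 (limma adjusted p = 0.00654), -2.92 for Hspa1b (adjusted p = 0.008) and -2.83 for Hspa1a (adjusted p = 0.0106). At 72 h against 0 h they were -2.17 for Dnajb1 (limma adjusted p = 0.00267), 1.19 for Hspa1b (adjusted p = 0.0267) and 1.14 for Hspa1a (adjusted p = 0.0437). The 72 h gain of the pair did not pass after either scaling, at 0.24 and 0.55 for Hspa1a and 0.29 and 0.69 for Hspa1b, and leaving out any one of the 4 libraries took the adjusted p of Hspa1a over 0.05.

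The ER chaperones rose over the same time. BiP (Hspa5), GRP94 (Hsp90b1) and the DnaJ protein Dnajc3 (p58IPK) belong to the classical targets of the unfolded protein response, and their promoters are the ones among the matched members that hold the ER stress element, CCAAT and CCACG with 9 bases between them, in capitals below, searched on both strands. The element was present in 4.41% of the 68 member promoters and in 0.119% of all promoters. Of the other ER members, Dnajb9, which rose most, Dnajb11, Dnajb12, Dnajb14, Dnajc1 and Dnajc10 had a promoter entry without it, and Hspa13 had no entry. Whether the element goes with the rise was not tested. The sequences are the 250 bases before the start (RefSeq, GRCm38.p6), at chr2:34771840-34772089 on the plus strand for Hspa5, chr10:86705445-86705694 on the minus strand for Hsp90b1 and chr14:118937682-118937931 on the plus strand for Dnajc3.
Hspa5: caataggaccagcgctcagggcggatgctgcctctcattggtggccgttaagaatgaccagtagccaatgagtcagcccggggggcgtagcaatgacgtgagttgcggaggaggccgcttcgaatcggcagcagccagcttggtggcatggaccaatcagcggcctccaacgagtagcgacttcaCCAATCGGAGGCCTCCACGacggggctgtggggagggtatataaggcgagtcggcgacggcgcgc
Hsp90b1: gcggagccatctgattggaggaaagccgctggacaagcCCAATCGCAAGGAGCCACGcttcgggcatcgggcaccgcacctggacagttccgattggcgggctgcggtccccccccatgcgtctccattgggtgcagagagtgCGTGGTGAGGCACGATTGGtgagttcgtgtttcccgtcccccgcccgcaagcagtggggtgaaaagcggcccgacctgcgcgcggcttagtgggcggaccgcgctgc
Dnajc3: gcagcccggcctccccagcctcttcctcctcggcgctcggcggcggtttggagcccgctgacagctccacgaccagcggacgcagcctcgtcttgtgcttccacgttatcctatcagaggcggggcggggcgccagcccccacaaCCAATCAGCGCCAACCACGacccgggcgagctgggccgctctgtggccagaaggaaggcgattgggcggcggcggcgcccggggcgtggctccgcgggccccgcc
The element lies 65 to 47 bases before the start of Hspa5 and 105 to 87 bases before that of Dnajc3. Hsp90b1 holds it at 212 to 194 bases before the start, and again, on the other strand, at 107 to 89 bases before it.

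Hspa5 had 241 and 133 FPKM at 0 h, 289 and 350 at 24 h, 554 and 415 at 48 h and 675 and 566 at 72 h. Dnajb9 (ERdj4, a BiP partner) had 22.5 and 16.7 FPKM at 0 h, 53.5 and 58.2 at 24 h, 84.7 and 73.7 at 48 h and 104 and 110 at 72 h. Hspa13, an ER-associated HSP70 relative, had 4.43 and 3.98 FPKM at 0 h, 11.7 and 12.7 at 24 h, 19.1 and 18.4 at 48 h and 25.2 and 25.6 at 72 h. Each later library of all 3 genes stood above both 0 h libraries. Hsp90b1 had 83.3 and 79.8 FPKM at 0 h, 125 and 204 at 24 h, 120 and 141 at 48 h and 154 and 191 at 72 h. Dnajc3 had 7.50 and 5.56 FPKM at 0 h, 12.4 and 14.1 at 24 h, 14.1 and 14.7 at 48 h and 15.96 and 21.1 at 72 h. Here too every later library stood above both 0 h libraries. How many of all genes showed this order was not counted. The median gene was itself higher, by 0.37 at 24 h and 0.76 at 72 h, so nothing is drawn from the order alone.

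At 24 h against 0 h, 13 of 63 members were called, or 20.6%, where 18.1% of all genes were called (15.5% higher and 2.6% lower); 10 were higher and 3 lower. Of the 10 ER members 6 were called higher. They rose by 1.48 for Dnajb9 (limma adjusted p = 0.011), 1.34 for Hspa13 (adjusted p = 0.0102), 1.16 for Dnajc1, 1.04 for Dnajb14, 0.96 for Hsp90b1 and 0.93 for Dnajc3. Hspa5 was not called at 24 h, at 0.82 (limma adjusted p = 0.11). The median change was 0.95 over the ER members and 0.37 over all genes. The 23 members sorted as cytosolic, without the DNAJC class, had a median of -0.15. After median-of-ratios scaling 2 members were higher and 5 lower, and after quantile normalization 2 were higher and 4 lower. Both kept Dnajb9 and Hspa13 of the 6 ER calls. A single fit of all 36 libraries gave 25 calls. A replicate block, for which the labels give no shared source, gave 26. Leaving out a library left few calls, with 5 and 2 without explant 0 h replicates 1 and 2 and 1 without either 24 h library.

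At 72 h against 0 h, 37 of 63 members were called, or 58.7%, where 56.0% of all genes were called (46.9% higher and 9.1% lower); 34 were higher and 3 lower. All 10 ER members were called higher (median 1.35, all genes 0.76), led by Dnajb9 at 2.40 (SE 0.22, limma adjusted p = 0.000438) and Hspa13 at 2.34 (SE 0.19, adjusted p = 0.000299). Hspa5 was at 1.78 (adjusted p = 0.00334), Dnajb11 (ERdj3) at 1.39 and Dnajc3 at 1.37. A replicate block gave 46 calls, and either scaling gave fewer than 37. Median-of-ratios gave 4 members higher and 11 lower and kept 2 of the 10 ER calls, Dnajb9 and Hspa13; quantile normalization gave 10 higher and 9 lower and kept 4, these 2 with Dnajb11 and Hspa5. Under median-of-ratios scaling Hspa5 was at 0.86 (adjusted p = 0.0582) and Hsp90b1 at 0.15. Without explant 0 h replicate 2 the count was 21.

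**Figure D4:**
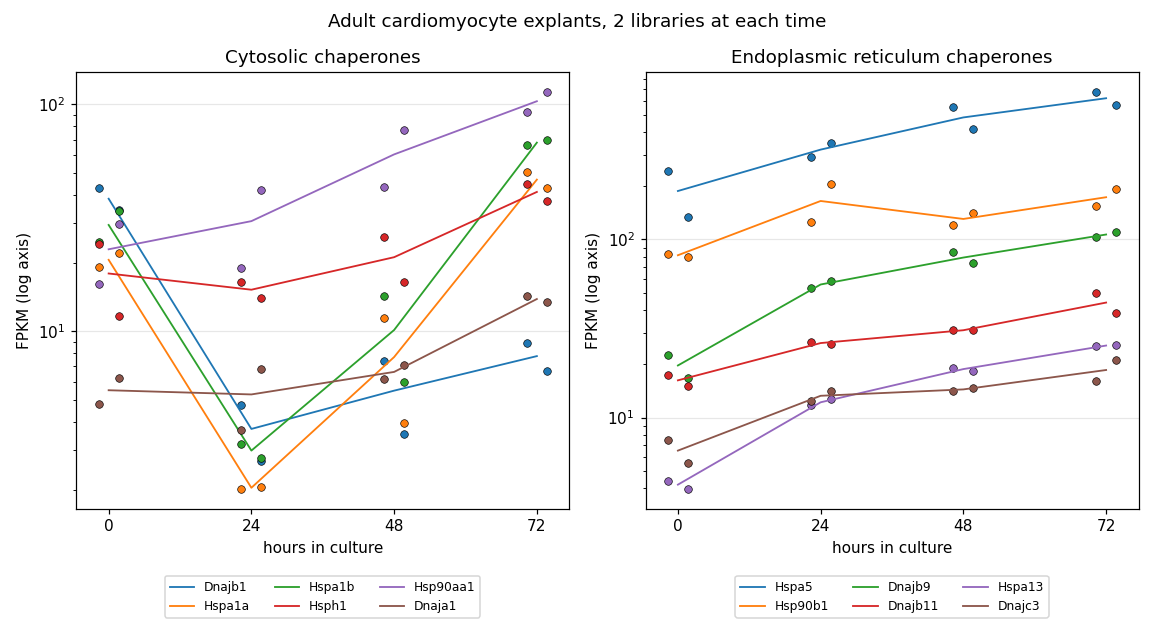
Cytosolic (left) and ER (right) chaperones in adult cardiomyocyte explants, as FPKM on a log axis against hours in culture; points are libraries, 2 at each time, and lines join the means. Dnajb1, Hspa1a and Hspa1b are lowest at 24 h, and the ER genes lie higher at 72 h than at 0 h.

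Genes outside the family were counted from 4 pathway lists, where rose and fell mean called by limma. Of all genes 15.5% were called higher and 2.6% lower at 24 h, and 46.9% higher and 9.1% lower at 72 h. Of 20 listed ER stress and ER folding genes, 14 rose at 24 h and 19 at 72 h and none fell, with medians of 1.16 and 1.88 against 0.37 and 0.76 for all genes. Ddit3 (CHOP) was at 2.55 at 24 h (limma adjusted p = 0.00572). Atf4, the transcription factor of the stress response, was at 2.14 at 24 h (adjusted p = 0.00549) and 2.91 at 72 h (adjusted p = 0.000286), and Sdf2l1, a BiP cofactor, at 3.52 at 72 h (adjusted p = 0.000439). Of 25 heat shock factor and co-chaperone genes 3 rose and 1 fell at 24 h and 10 rose and 2 fell at 72 h, among them Stip1 (HOP), which links HSP70 to HSP90, at 2.23 at 72 h (adjusted p = 0.00033), and Fkbp4, an HSP90 co-chaperone, at -1.98 (adjusted p = 0.000587). Of 13 genes of the cytosolic chaperonin TRiC and prefoldin 2 rose at 24 h and 9 at 72 h, led by Cct2 at 1.62. Of 12 mitochondrial import and quality genes none was called at 24 h, and 5 rose and 1 fell at 72 h. The shares of genes rising in the co-chaperone and mitochondrial lists were below those of all genes at both times, and that of TRiC and prefoldin was close to it at 24 h.

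Among cytosolic members at 72 h, Hsp90aa1, the stress-inducible HSP90, had 16.1 and 29.9 FPKM at 0 h, 19.0 and 42.2 at 24 h, 43.4 and 77.1 at 48 h and 92.9 and 114 at 72 h (72 h against 0 h 2.17, limma adjusted p = 0.00648). Hsph1 (HSP110) had 24.2 and 11.7 FPKM at 0 h, 16.5 and 14.0 at 24 h, 26.0 and 16.5 at 48 h and 44.7 and 37.6 at 72 h (1.23, limma adjusted p = 0.0228). Dnaja1, a general cytosolic DnaJ partner, had 4.77 and 6.23 FPKM at 0 h, 3.69 and 6.85 at 24 h, 6.15 and 7.09 at 48 h and 14.2 and 13.5 at 72 h (limma adjusted p = 0.0102). All 3 were highest at 72 h in both libraries. After median-of-ratios scaling none of the 3 was called, at 1.28, 0.34 and 0.38. Hsp90ab1 had 727 and 1035 FPKM at 72 h against 389 and 599 FPKM at 0 h and was not called (0.84, adjusted p = 0.0703). Hspa8 (HSC70), the HSP70 made at all times, had 62.7 and 23.3 FPKM at 72 h against 21.5 and 21.4 FPKM at 0 h and was not called (0.81, adjusted p = 0.188).

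Single libraries carried some of the high values. Hspa4l, an HSP110 relative, had 18.0 and 14.6 FPKM at 0 h, 13.1 and 13.2 at 24 h, 17.3 and 17.3 at 48 h and 34.8 and 188 at 72 h, a call of 2.25 (limma adjusted p = 0.0213). Without the 72 h replicate 2 it was 1.06 and still called (adjusted p = 0.0155), and without 0 h replicate 1 or 2 it was 2.40 and 2.11 and not called (adjusted p = 0.054 and 0.0825). Hspb1 (HSP25), a small heat shock protein that binds actin, had 156 and 35.5 FPKM at 0 h, 100 and 40.7 at 24 h, 146 and 55.5 at 48 h and 549 and 74.3 at 72 h, and replicate 1 was the higher one throughout; it was not called (1.43, adjusted p = 0.276). Hspb7 had 728 and 282 FPKM at 72 h against 601 and 601 FPKM at 0 h. Hspb8 had 308 and 166 FPKM at 0 h, 211 and 180 at 24 h, 335 and 217 at 48 h and 355 and 331 at 72 h and was not called. Hspb2, a muscle small heat shock protein, was the one of this class called at 72 h, with 151 and 158 FPKM at 72 h against 49.0 and 37.6 FPKM at 0 h (1.82, limma adjusted p = 0.00112).

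Of the 8 mitochondrial chaperones 2 were called at 72 h, where 56.0% of all genes were, and their median was 0.13, where all genes had 0.76. Hspa9 had 201 and 206 FPKM at 0 h, 251 and 292 at 24 h, 353 and 348 at 48 h and 295 and 316 at 72 h (72 h against 0 h 0.59, limma adjusted p = 0.0302; -0.33 after median-of-ratios scaling). Without any one of the 4 libraries of this comparison Hspa9 was not called, with an adjusted p of 0.0649 to 0.0989. Hspd1 (HSP60) had 40.8 and 22.5 FPKM at 72 h against 42.4 and 16.3 FPKM at 0 h, and its partner Hspe1 (HSP10) had 71.2 and 25.01 FPKM at 72 h against 36.3 and 22.5 FPKM at 0 h, with overlapping groups. Hspa12a fell to 0.233 and 0.368 FPKM at 72 h, against 3.32 and 1.75 FPKM at 0 h (-1.41, limma adjusted p = 0.00577). Dnajc28 was the third member called lower, at -0.66. Over the same hours summed cardiomyocyte markers were 16000 and 10700 FPKM at 0 h, 9050 and 9550 at 24 h, 4930 and 6200 at 48 h and 2180 and 2600 at 72 h, and macrophage and leukocyte markers 2.54 and 1.95, 6.47 and 3.05, 20.3 and 41.6, and 137 and 83.6 FPKM. The part of these shifts in the chaperone changes was not tested.

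In unoperated ventricle the small heat shock protein Hspb8 (HSP22; ENSMUSG00000041548, mm9 chr5:116858499-116872873), which works with the co-chaperone BAG3 in removing damaged contractile proteins, showed the largest age difference of the family. It had 27.7 and 23.8 FPKM at P0, 49.2 and 49.0 at P4, 93.6 and 83.8 at P7 and 230 and 264 in adults. No group overlapped the next. It averaged 88.7 ± 6.90 FPKM at P7 and 25.8 ± 2.74 FPKM at P0 (SD, n = 2 each), a difference of 1.75 (SE 0.15, limma adjusted p = 2.17e-05), and 246.8 ± 24.1 FPKM in adults, 3.21 above P0 (SE 0.15, limma adjusted p = 8.42e-09). Both calls held in every alternative and with every library left out.

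At P7 against P0, 8 of 65 members were called, or 12.3%, where 12.7% of all genes were called (4.38% higher and 8.28% lower). Besides Hspb8, Dnajb4 and Dnajc21, a ribosome-maturation DnaJ protein, were higher at 0.44 and 0.45. Dnajb4 had 41.0 and 40.1 FPKM at P7 against 27.3 and 32.2 FPKM at P0, and Dnajc21 had 12.4 and 13.6 FPKM at P7 against 7.84 and 10.8 FPKM at P0, without overlap. Hspb1 was lower, with 23.8 and 22.9 FPKM at P7 against 59.0 and 50.3 FPKM at P0 (-1.19, limma adjusted p = 0.0164), and Dnajb3, Dnajc27, Hspbap1 and Dnajc9 were lower by -0.68, -0.56, -0.55 and -0.38. Dnajb3 had 0.323 and 0.437 FPKM at P7 against 1.18 and 1.24 FPKM at P0, and its model lies inside those of the Ugt1a genes, so its reads are uncertain. Leaving out P0 replicate 1, P7 replicate 1 or P7 replicate 2 left 1, 1 and 2 calls, with Hspb8 kept in each. Median-of-ratios scaling gave 4 higher and 3 lower, and quantile normalization 5 of each. The median of all genes was -0.14 as deposited.

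In adults against P0, 37 of 65 members were called, or 56.9%, where 57.2% of all genes were called; 18 were higher and 19 lower. The share of higher calls was 27.7%, where 13.4% of all genes were higher, and of lower calls 29.2%, where 43.8% were lower. The member median was -0.02 and that of all genes -0.36. Median-of-ratios scaling, which sets the median gene at 0.00, gave 30 higher and 3 lower, and quantile normalization gave 25 higher and 7 lower. Of the 24 members sorted as cytosolic 11 were higher and 3 lower, and of the 8 mitochondrial ones 4 and 1. The 10 ER members gave 1 higher, Dnajb9, and 3 lower.

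After Hspb8 the largest increases were in Hsph1, Dnajc28 and the inducible HSP70 pair. Hsph1 had 18.7 and 43.6 FPKM in adults against 9.22 and 10.3 FPKM at P0 (1.47, limma adjusted p = 0.000498), and its adult libraries lay far apart. Dnajc28, whose model overlaps a neighbouring one, had 14.4 and 16.01 FPKM in adults against 6.05 and 5.87 FPKM at P0 (1.22, adjusted p = 0.000152). Hspa1a had 2.29 and 4.70 FPKM in adults against 1.196 and 0.719 FPKM at P0, and Hspa1b 2.81 and 6.54 FPKM in adults against 1.67 and 1.16 FPKM at P0, each at 1.16 (adjusted p = 0.00161 and 0.00294); adult replicate 2 was the higher one for Hsph1 and the pair alike. Neither gene of the pair was called in a single fit of all 36 libraries, and Hspa1b was not called with a pseudocount of 0.1. Dnajb4, Dnajb5 and Dnajb2, of class B of the DnaJ proteins, were higher by 1.15, 1.15 and 1.01. Hspb7 had 714 and 610 FPKM in adults against 436 and 311 FPKM at P0 (0.84, limma adjusted p = 0.00101). Dnaja3, the mitochondrial DnaJ partner of Hspa9, was higher by 0.82.

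The largest decrease was in Dnajc9, a DnaJ protein that acts as a histone chaperone in dividing cells, with 5.56 and 5.43 FPKM in adults against 15.96 and 13.9 FPKM at P0 (-1.29, SE 0.11, limma adjusted p = 1.37e-06). Dnajb3 was lower too, and Hspa14, a ribosome-associated HSP70 relative, had 11.2 and 10.7 FPKM in adults against 20.5 and 18.7 FPKM at P0 (-0.79, adjusted p = 0.00941). Hspb11 was at -0.79 (adjusted p = 0.0439). Several abundant members were not called on the deposited scale: Hsp90ab1 had 365 and 471 FPKM in adults against 456 and 391 FPKM at P0 (-0.02), Hspa9 had 184 and 206 FPKM in adults against 180 and 188 FPKM at P0 (0.08), and Hspa5 had 166 and 212 FPKM in adults against 182 and 162 FPKM at P0 (0.13), with adjusted p of 0.911, 0.586 and 0.535. All 3 were called higher after median-of-ratios scaling, at 0.44, 0.54 and 0.59, and Hsp90ab1 was called lower after quantile normalization, at -0.54. Hspb1, lower at P7, had 43.4 and 78.3 FPKM in adults (0.10 above P0, adjusted p = 0.787). Of 25 listed heat shock factor and co-chaperone genes 6 were higher and 2 lower in adults, led by Cryab (alphaB-crystallin, a small heat shock protein without the Hspb name) at 1.52 (adjusted p = 1.7e-05) and Bag3, the Hspb8 partner, at 1.25 (adjusted p = 1.82e-05). Of 13 TRiC and prefoldin genes none was higher and 7 were lower, with Cct2 at -0.97; of all genes 13.4% were higher and 43.8% lower. Summed macrophage and leukocyte markers were 140 and 188 FPKM in adults and 37.0 and 28.8 FPKM at P0, and cardiomyocyte markers 14500 and 15400 FPKM in adults and 11200 and 9910 FPKM at P0; the part of composition was not tested.

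**Figure D5:**
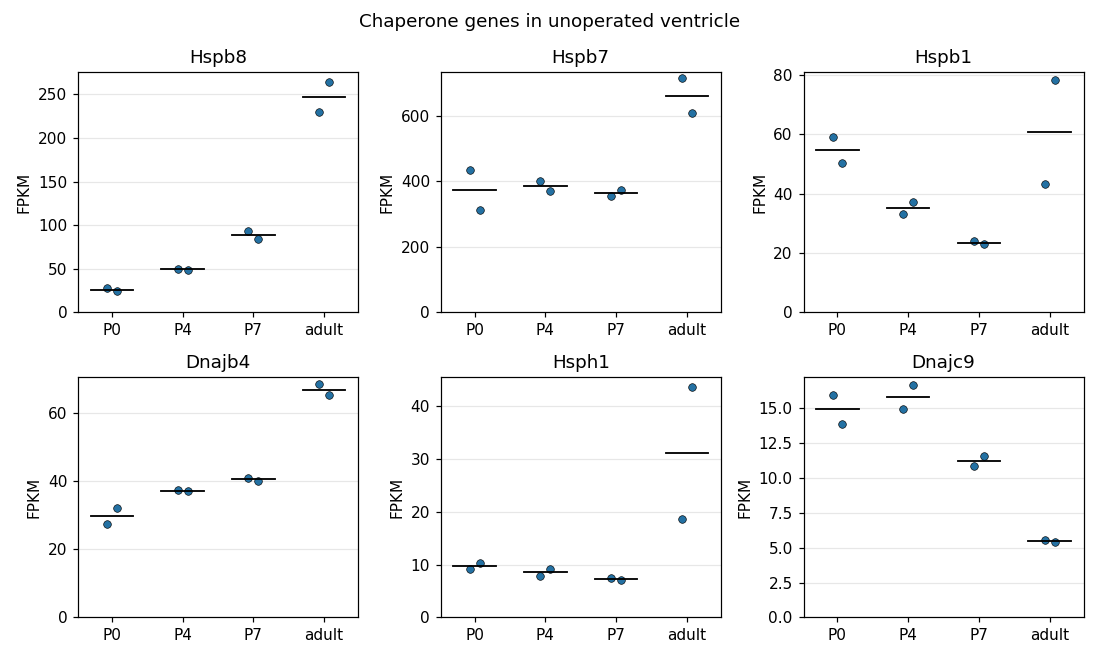
FPKM of 6 chaperone genes in unoperated ventricle at P0, P4, P7 and in adults; points are libraries (n = 2) and bars the means, on axes that start at 0. Hspb8 is higher at each later age, Hspb1 is lowest at P7, and Dnajc9 is lowest in adults.

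In isolated cardiomyocytes at P4 against P0, limma called none of 62 members, where 0.00765% of all genes (1 of 13080) were called. The 4 members with an unadjusted p under 0.05 were Dnajb9, Hspb8, Hspa5 and Dnajc3, all higher at P4. The share of all genes under that unadjusted limit is not given here, so nothing is drawn from this count. Hspb8 had 38.1, 50.0 and 35.2 FPKM at P4 against 22.1, 22.1 and 26.5 FPKM at P0 (0.77, limma adjusted p = 1.0), and the groups did not overlap. Dnajb9 had 16.6, 14.7 and 11.3 FPKM at P4 against 9.10, 7.54 and 9.96 FPKM at P0 (0.61, adjusted p = 1.0), again without overlap. No member was called in any alternative.

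In isolated cells on day 7 after surgery, resection against sham gave no call among 62 members, where 1.09% of all genes were called by limma (1.08% higher and 0.0153% lower). An unadjusted p under 0.05 was seen for 7 members, again without the share of all genes under that limit. Hspb8 had 42.5, 27.3 and 60.1 FPKM after resection against 27.9, 22.1 and 27.8 FPKM after sham (0.66, limma adjusted p = 0.285), and the groups overlapped. Without resection replicate 2 its adjusted p was 0.0498. Dnajc12, a cytosolic DnaJ protein, had 1.38, 0.941 and 2.08 FPKM after resection against 0.774, 0.413 and 0.806 FPKM after sham (0.55, adjusted p = 0.23). Hspa1b was at -1.25 (adjusted p = 0.412) and Hspa12b at -1.34 (adjusted p = 0.386), with resection replicates 1 and 3 low and replicate 2 near the sham level for the inducible pair. Summed endothelial markers were 140, 374 and 18.3 FPKM in the resected libraries and 401, 429 and 396 FPKM in the sham libraries. Atrial markers (5 genes) summed to 730, 1310 and 739 FPKM in the resected and 41.2, 55.8 and 91.5 FPKM in the sham libraries. Lung epithelial markers (5 genes) summed to 595, 178 and 1160 FPKM in the resected and 0.435, 0.451 and 2.7 FPKM in the sham libraries. Fibroblast markers (6 genes) summed to 801, 1960 and 883 FPKM in the resected and 158, 206 and 968 FPKM in the sham libraries, and erythroid ones (6 genes) to 5880, 2980 and 43800 FPKM in the resected and 2220, 2370 and 3020 FPKM in the sham libraries. The part of these cells in the values was not tested.

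In whole ventricle 1 day after surgery, 4 of 65 members were called between resection and sham, or 6.15%, where 10.3% of all genes were called (1.39% higher and 8.91% lower); 2 were higher and 2 lower. Hspe1 (ENSMUSG00000073676, mm9 chr1:55144975-55148151), the HSP10 lid of the mitochondrial chamber, had 74.2 and 71.0 FPKM after resection against 25.5 and 37.0 FPKM after sham (1.21, SE 0.32, limma adjusted p = 0.0352). Its partner Hspd1, whose model shares 113 bases with it at their common promoter, had 157 and 170 FPKM after resection against 170 and 159 FPKM after sham (-0.01, adjusted p = 0.992). Dnajc15, a DnaJ protein of the mitochondrial inner membrane, had 124 and 140 FPKM after resection against 91.8 and 96.8 FPKM after sham (0.48, adjusted p = 0.0249). Dnajc25 had 6.91 and 10.2 FPKM after resection against 12.6 and 14.1 FPKM after sham (-0.61, adjusted p = 0.028), and Hspa12b had 4.75 and 6.57 FPKM after resection against 8.01 and 8.29 FPKM after sham (-0.47, adjusted p = 0.0471). For all 4 genes resected and sham libraries did not overlap, which adds no support, since the genes were named for being called. After either scaling 5 members were higher and none lower. The median of all genes was -0.16 as deposited.

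These day 1 calls rest on few libraries. Without resection replicate 1 the count was 2, without resection replicate 2 it was 21, and without sham replicates 1 and 2 it was 1 and 0. Hspe1 was not called without resection replicate 1 or either sham library, nor in a fit of these groups alone (adjusted p = 0.129). Summed macrophage and leukocyte markers were 29.7 and 31.0 FPKM after resection and 71.0 and 104 FPKM after sham, and endothelial ones 128 and 170 FPKM after resection and 197 and 189 FPKM after sham; their part in these calls was not tested. Hsp90ab1, Hspa8, Hsp90aa1, Hspa9 and Hspa5 were not called, with Hspa8 at 158 and 126 FPKM after resection against 113 and 99.4 FPKM after sham (0.41, adjusted p = 0.174).

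On day 7 after surgery, ventricle gave no call among 65 members by limma, where 0.162% of all genes were called (0.155% higher and 0.00704% lower). An unadjusted p under 0.05 was seen for 3 members, again without the share of all genes under that limit. Dnajc9 had 21.7 and 20.9 FPKM after resection against 16.2 and 14.9 FPKM after sham (0.43, limma adjusted p = 0.187), without overlap. Hspe1 had 50.9 and 40.3 FPKM after resection against 38.7 and 17.6 FPKM after sham (0.77, adjusted p = 0.419). The inducible pair ran from 0.00332 to 0.406 FPKM in these 4 libraries. Lung epithelial markers summed to 215 and 95.9 FPKM after resection and to 2.57 and 25.9 FPKM after sham. Macrophage and leukocyte markers summed to 139 and 102 FPKM after resection and to 62.6 and 59.1 FPKM after sham. The part of these cells in the day 7 values was not tested. The difference between the day 7 and the day 1 effect of resection was called for 1 member, Dnajc15, where 5.91% of all genes were called (5.66% higher and 0.246% lower). It was at -0.67 (limma adjusted p = 0.0353), with 99.5 and 115 FPKM after resection at day 7 against 122 and 123 FPKM after sham. No gene of the 4 pathway lists was called for resection against sham in day 7 ventricle or in the 2 comparisons of isolated cells. For the day 7 minus day 1 effect, 1 of 20 ER stress and folding genes and 1 of 25 co-chaperone genes were called higher. Without day 1 resection replicate 2 the count was 15 members, and without day 7 resection replicate 2 it was 2. It was 0 without day 1 sham replicate 2, day 7 resection replicate 1 or either day 7 sham library.

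Operated ventricle as a whole, resection and sham together, stood apart from unoperated neonatal ventricle. Of the 65 members 17 were higher in all 8 operated libraries than in all 6 libraries of P0, P4 and P7, where 11.6% of all genes were; 12 were lower in all, where 19.9% were. Hspa8 ran from 82.3 to 158 FPKM in operated ventricle (median 103) and from 20.2 to 30.4 FPKM in unoperated neonatal ventricle (median 23.6). Hsp90aa1 ran from 94.0 to 165 FPKM in operated and from 10.4 to 16.8 FPKM in unoperated ventricle, and Hspd1 from 118 to 170 FPKM in operated and from 48.5 to 68.6 FPKM in unoperated ventricle. Hsp90ab1, Hspa9 and Hspa4 were in the same set. In the other direction Hspbp1, a nucleotide exchange factor of HSP70, ran from 0.652 to 4.09 FPKM in operated and from 13.8 to 18.5 FPKM in unoperated ventricle, and Hspb7 from 181 to 280 FPKM in operated and from 311 to 436 FPKM in unoperated ventricle. Hspa1a and Hspa1b were lower too, at 0.208 to 0.415 and 0.00332 to 0.616 FPKM in operated ventricle. Isolated cells on day 7 showed no such rise of Hsp90aa1, Hspa8 or Hspd1. Hsp90aa1 averaged 12.22 FPKM after resection and 12.11 after sham there, against 12.84 at P4 and 12.65 at P0. In the same order Hspa8 averaged 13.99, 14.87, 15.45 and 13.56 FPKM, and Hspd1 16.39, 13.95, 28.57 and 33.76 FPKM. Hspa9 and Hspe1 have pseudogene rows in the table, so the values of these genes depend on how reads matching several copies were assigned, which is not given. Surgery, age and any difference in library kit or sequencer, of which the labels name 2 kinds each without saying which library had which, cannot be told apart here, and no test was made.

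Isolated libraries as a whole were lower than ventricle in 13 members, Hspa9, Hspd1, Hspa4, Hspa4l, Dnaja2, Dnajb14, Dnajc1, Dnajc11, Dnajc14, Dnajc21, Dnajc25, Dnajc30 and Dnajc5, in every library against every library, where 7.13% of all genes were. Hspa9 ran from 44.9 to 146 FPKM in isolated cells and from 161 to 340 FPKM in ventricle. Hspd1 ran from 10.2 to 37.2 FPKM in isolated cells and from 48.5 to 170 FPKM in ventricle. These libraries include the P0 groups tested above, and the median gene was lower there too.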

How the data were processed

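The authors sequenced total RNA (Trizol), prepared by 1 of 2 library protocols and read on 2 sequencer models, per the labels' protocols. The authors deposited FPKM values for 36128 gene models. TopHat 1.3.2 with Bowtie 0.12.7, then Cufflinks 1.2.1 and Cuffdiff, on build mm9, are listed in the submitters' processing notes; the annotation, the counting of reads that match several copies and strand are not given in the sources used here. FPKM are not counts, so depth is unknown and no count model was run.

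Values were taken as log2(FPKM + 1), 1 row per symbol. Group means were fitted with limma 3.58.1 (R 4.3.3, variance trend) for 12 isolated, 16 ventricle and 8 explant libraries, and for all 36 in the 2 comparisons between preparations. Testing was limited to genes reaching 1 FPKM in 2 or more of a fit's libraries, which kept 62, 65, 63 and 65 members. The scripts were tested on simulated data. Chaperone classes and compartments follow general knowledge, and counts by compartment depend on this sorting. The cytosolic set holds no DNAJC gene, so Dnajc2, Dnajc7 and Dnajc12 are outside it. The labels give no shared source for equal replicate numbers, which were taken to pair no samples. Their deviations correlated throughout only in explants, which have 2 pairs, so a shared source is not excluded there.

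Named in full were up to 4 called members with the largest increase and 4 with the largest decrease in each comparison, or the 2 with the smallest p, and 17 fixed genes, of which Hspb6 was not analysed; others, and the genes of 4 pathway lists (70 of 76 found), were chosen by size or after their values were seen. The members, lists and comparisons were chosen with earlier results of these data known. Alternatives were a pseudocount of 0.1, no filter, 2 scalings, a replicate block, fits of the compared groups alone, a single fit, and leaving out each library. Figures used Matplotlib 3.10.9.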

Additional observations from a re-analysis of the deposited data

Results flagged for a closer look

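The effect of resection on Dnajc15 in ventricle differed between day 7 and day 1, by -0.67 on the log2(FPKM + 1) scale (limma adjusted p = 0.0353, a test of the difference itself). Dnajc15 averaged 107 ± 11.3 FPKM after resection and 122 ± 0.588 FPKM after sham at day 7, and 132 ± 11.6 FPKM after resection and 94.3 ± 3.56 FPKM after sham at day 1 (SD, n = 2 each). The groups did not overlap at either day, which describes 2 libraries against 2 and adds no support to the call. The adjusted p was 0.0811 and 0.0886 without the first and the second sham library of day 1, 0.14 without resection replicate 1 of day 7, and 0.0972 and 0.079 without the first and the second sham library of day 7.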

How the results depend on the processing

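A pseudocount of 0.1 kept every count of called members within 1.5 times. Without a filter there were 2 calls at day 1 and 7 in explants at 24 h. Median-of-ratios scaling gave 7 calls at 24 h, 15 at 72 h, 3 for isolated against ventricle P0 and 2 for the day 7 minus day 1 effect; quantile normalization gave 6, 19 and 3 for the first 3 and 11 for explants at 0 h against adult ventricle. Fits of the compared groups alone gave 3 calls at P7, 0 at day 1, 0 for day 7 minus day 1, 6 at 24 h and 7 for explants at 0 h; the single fit gave 1 at P7, 23 in adults, 0 at day 1, 0 for day 7 minus day 1 and 25 at 24 h. Under median-of-ratios scaling the sign turned for Hsp90ab1 (0.44) and Hspd1 (0.13) in adults, Hspa9 at 72 h (-0.33), and Hsp90ab1 (0.14), Hsp90b1 (0.11) and Hspa9 (0.20) in isolated cells against ventricle; the cause was not tested.

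Leaving out 1 library gave 1 to 7 calls at P7, 26 to 30 in adults, 0 to 21 at day 1 (21 without resection replicate 2), 0 to 15 for day 7 minus day 1 (15 without the same library), 1 to 5 at 24 h, 21 to 27 at 72 h, 8 to 19 for explants at 0 h, 20 to 41 for isolated against ventricle P0 and 0 to 1 in isolated cells at day 7 (1 without resection replicate 2). The lone library left in an arm of 2 was assumed to vary like the other groups.

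Replicate numbers correlated in explants (0.556 at 24 h, 0.383 at 72 h), between -0.082 and 0.425 in isolated cells and below 0 in ventricle. With the replicate block the calls were 26 at 24 h, 46 at 72 h, 21 for explants at 0 h, 40 for isolated P0, 7 at P7, 36 in adults, 4 at day 1, 1 for day 7 minus day 1 and 0 in the others.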

Other observations

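Fkbp5, an HSP90 co-chaperone known as a glucocorticoid target, moved in several ventricle comparisons. Fkbp5 was lower at P7 than at P0 (2.95 ± 0.0521 FPKM at P7, 7.57 ± 0.532 FPKM at P0, SD, n = 2 each; difference -1.12, limma adjusted p = 0.000318) and lower after resection than after sham at day 1 (-1.05, adjusted p = 0.00159), and the resection effect at day 7 exceeded that at day 1 by 1.36 (adjusted p = 0.00397). It was also lower in isolated cells than in ventricle at P0 (-1.32, adjusted p = 0.000595).

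Pseudogene rows, left out of the family, held signal. Hspa9-ps1 ran from 5.23 to 7.69 FPKM in the 8 operated ventricle libraries and from 36.8 to 45.8 FPKM in the 6 unoperated neonatal ones, while Hspa9 was higher in every operated library. Hspe1-ps2 was listed at 0 in all 8 operated libraries and had 1.16 to 2.14 FPKM in the 6 unoperated neonatal ones. How reads were shared between these genes and their copies was not tested.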
